A study of Homo sapiens with 4 samples.

Results

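The genes described here are NR3C1, FOXA1, HOXB13, GATA2, FKBP5, TMPRSS2 and SLC45A3, a set built around steroid hormone signalling and the identity of the prostate epithelium. They were taken by symbol from per-gene expression tables of the prostate cancer line PC3, and all 7 were found among 57963 genes. PC3 is a human line from a bone metastasis of prostate cancer. The cells carried a lentiviral reporter in which response elements for SOX2 and OCT4 drive a destabilized GFP (SORE6), were selected with puromycin (5 ug/ml by the labels, a lower dose by the study's methods), were grown in DMEM with 10% FCS and were at passages 18 to 22. GFP-positive cells were sorted as SORE6+, labelled as cancer stem cells, and GFP-negative cells as SORE6-, labelled as non-stem cells, so that both gates come from the same infected line and are told apart by reporter brightness. RNA of 2 SORE6+ and 2 SORE6- sorts was sequenced, 1 library each, with replicates 1 and 2 in each gate. The sources do not say whether the line was a pool or a clone.

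In luminal cells of the prostate, androgen and other steroid hormones act through hormone-bound transcription factors that work together with lineage factors. FOXA1 is a pioneer factor that opens chromatin for hormone receptors, GATA2 works with it at many of the same enhancers, and HOXB13 is a homeobox factor of the posterior body that marks prostate epithelium. NR3C1 encodes the glucocorticoid receptor, a hormone-bound factor that can drive part of the androgen-induced gene program. FKBP5, TMPRSS2 and SLC45A3 are read-outs: all are induced by androgen in luminal cells, and FKBP5 is also a classical glucocorticoid target.

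Of the other steroid receptor genes, PGR, the progesterone receptor gene, was at 0.0214 TPM or less in every library, where TPM is a transcript level scaled for transcript length and library size. SOX2 and POU5F1, which encodes OCT4, are the genes whose response elements make up the reporter. SOX2 was at 0.0803 and 0 TPM in SORE6+ cells, against 0.0207 and 0.0196 TPM in SORE6- cells. POU5F1 was at 3.09 and 2.61 TPM in SORE6+ cells, against 2.82 and 2.14 TPM in SORE6- cells. These are RNA levels. By flow cytometry of PC3 cells, the study reported more of both proteins in SORE6+ than in SORE6- cells.

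The promoters of the set are shown because its lineage factors and NR3C1 are themselves DNA-binding proteins with known sequence preferences. RefSeq windows of 300 bases on GRCh38.p14, from 250 bases before to 50 bases after a start, were matched for 5 of the 7 genes, with 13 windows in all because NR3C1 has 7, FKBP5 2 and GATA2 2. HOXB13 and TMPRSS2 had none. Each window was searched on both strands for 4 words. They were TGTTTNC for forkhead factors such as FOXA1, then GATAA for the factors named after it. The half-site that the glucocorticoid receptor and its relatives bind was written as AGAACA. The word for HOXB13 was CAATAAA. No match in these windows overlapped a match of another word. Shown here are the 3 windows of the set with a match, plus that of SLC45A3, which had none; capitals mark the matches, and all lie on the minus strand.
FOXA1: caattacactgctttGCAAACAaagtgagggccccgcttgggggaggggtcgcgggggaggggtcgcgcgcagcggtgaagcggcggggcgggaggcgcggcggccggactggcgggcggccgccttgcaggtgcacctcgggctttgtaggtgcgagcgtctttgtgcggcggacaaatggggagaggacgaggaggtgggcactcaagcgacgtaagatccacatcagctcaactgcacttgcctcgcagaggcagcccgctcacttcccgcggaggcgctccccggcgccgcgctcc
NR3C1: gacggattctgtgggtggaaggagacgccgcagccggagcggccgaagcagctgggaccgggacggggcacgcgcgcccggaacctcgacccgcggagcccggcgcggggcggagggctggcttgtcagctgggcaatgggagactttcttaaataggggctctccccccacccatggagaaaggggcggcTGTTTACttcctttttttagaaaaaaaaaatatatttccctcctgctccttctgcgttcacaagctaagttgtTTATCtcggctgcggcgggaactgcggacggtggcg
FKBP5: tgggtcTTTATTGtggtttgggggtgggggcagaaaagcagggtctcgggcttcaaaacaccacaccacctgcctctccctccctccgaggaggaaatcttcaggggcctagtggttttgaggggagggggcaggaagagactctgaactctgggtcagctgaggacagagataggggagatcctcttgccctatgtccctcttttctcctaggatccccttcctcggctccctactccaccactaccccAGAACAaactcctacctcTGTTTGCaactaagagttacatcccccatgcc
SLC45A3: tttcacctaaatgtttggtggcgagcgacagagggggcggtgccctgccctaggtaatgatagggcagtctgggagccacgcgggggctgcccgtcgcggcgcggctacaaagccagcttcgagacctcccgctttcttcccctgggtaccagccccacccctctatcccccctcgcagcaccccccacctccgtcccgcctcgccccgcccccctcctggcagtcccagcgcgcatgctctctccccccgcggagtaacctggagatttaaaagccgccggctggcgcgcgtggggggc
The FOXA1 window (chr14:37595200-37595499) holds 1 word of the forkhead class, to which its own product belongs. The NR3C1 window shown (chr5:143403234-143403533), 1 of its 7, holds 1 forkhead and 1 GATA word. The FKBP5 window at the upstream start (chr6:35728534-35728833) holds 1 forkhead word, 1 receptor half-site and 1 HOXB13 word, while its other window holds none. The SLC45A3 window is at chr1:205680460-205680759. Among 35116 RefSeq windows of the same length, 18.0% hold the forkhead word, 22.7% the GATA word, 14.8% the half-site and 4.0% the HOXB13 word, against 3, 1, 1 and 1 of the 13 windows of the set, in that order. These are matches of letters and not binding sites.

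All 7 genes were present, meaning at least 1 TPM in all 4 libraries, and their levels fell into 4 tiers. FOXA1 stood highest, at 125 to 153 TPM, above 94.6% to 95.4% of protein-coding genes depending on the library. HOXB13 (54.8 to 75.1 TPM) and GATA2 (44.0 to 67.3 TPM) followed, and their ranges overlapped. HOXB13 lay above GATA2 in both SORE6+ libraries and in 1 of the 2 SORE6- libraries. SLC45A3 (24.0 to 32.5 TPM) and TMPRSS2 (20.1 to 33.5 TPM) formed the third tier, again with overlapping ranges, and NR3C1 (6.52 to 14.0 TPM) and FKBP5 (7.90 to 8.84 TPM) the lowest, with FKBP5 inside the range of NR3C1. FKBP5 stood above only 52.4% to 54.8% of protein-coding genes, near the middle. Ranges of different tiers did not overlap.

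**Figure D1:**
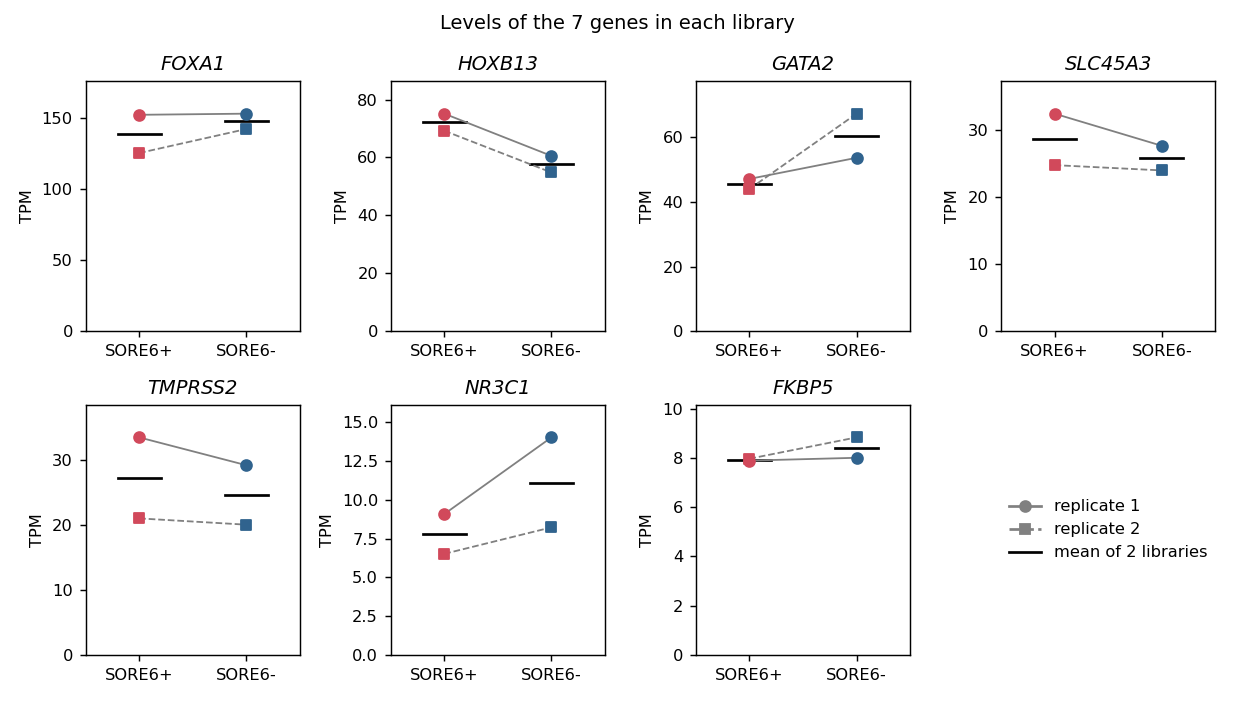
Level in TPM (vertical axis, from 0) of each of the 7 genes in SORE6+ libraries (left, red) and SORE6- libraries (right, blue); circles and squares are replicates 1 and 2, grey lines join the same replicate number and black bars are means of 2 libraries. HOXB13 lies at 69.2 to 75.1 TPM in SORE6+ cells and 54.8 to 60.5 TPM in SORE6- cells, while for TMPRSS2 the squares lie below the circles in both gates.

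Comparing the gates asked whether these genes differ between reporter-positive and reporter-negative cells. Values were transformed to log2(TPM + 1) and tested with limma across the 17642 genes that reached 1 TPM in 2 or more libraries. To pass, a gene needed both an adjusted p below 0.1 and a difference of 1.5-fold or more. None of the 7 passed, and neither did any other gene: 0 were called higher and 0 lower (0% in each direction), 673 genes (3.81%) had an unadjusted p under 0.05, and the smallest adjusted p was 0.202. With the replicate number as a block in limma over all genes the count was again 0 in each direction, with 2982 genes (16.9%) at an unadjusted p under 0.05. In the block fit of 12826 protein-coding genes alone, 71 genes (0.554%) passed as higher and 93 (0.725%) as lower, none of them among the 7. The smallest p an exact two-sided permutation test of a gene can give with 2 libraries a gate is 0.333. The study, which used DESeq2 at the same thresholds, reported genes past them in both directions. The counts of 0 above are therefore results of limma on TPM and do not show that no gene differs. The sources speak of separate pairs of sorted cells but not of separate cultures, so the spread between replicates may be partly technical.

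By pair, HOXB13, TMPRSS2 and SLC45A3 had the higher value in SORE6+ cells in both pairs, which held for 23.2% of all genes tested, and FOXA1, GATA2, NR3C1 and FKBP5 the lower value in both, which held for 42.3%. The SORE6+ values exceeded both SORE6- values for HOXB13 alone (true of 10.9% of all genes tested), and both were below them for GATA2 and FKBP5 (20.2%). The median log2 fold change of the 7 was -0.08, against -0.05 over all genes tested. In bulk RNA, fewer cells that express a gene and less RNA per cell cannot be told apart.

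**Figure D2:**
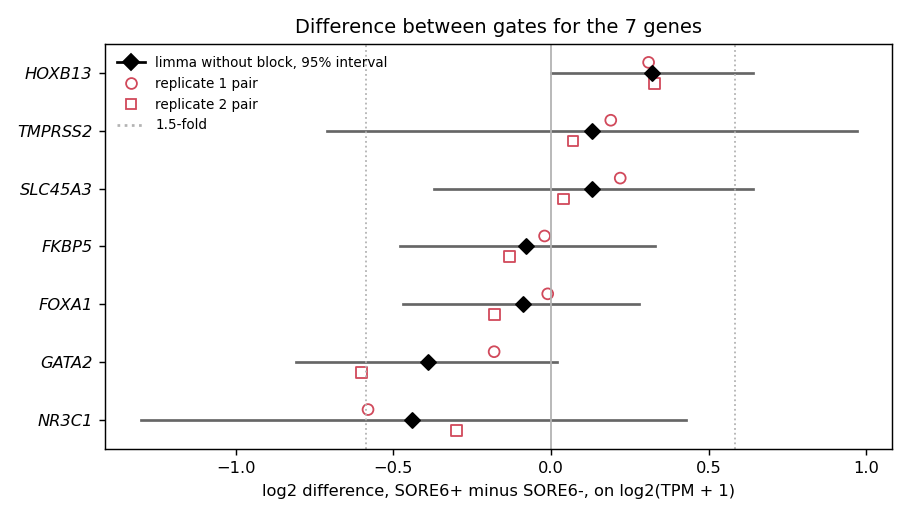
Difference between the gates on the log2(TPM + 1) scale, SORE6+ minus SORE6- (horizontal axis), for the 7 genes. Diamonds with bars are the limma fold changes without a block and their 95% intervals, open circles and squares the replicate 1 and 2 pairs, and dotted lines 1.5-fold; only the interval of HOXB13 (0.00 to 0.64) does not extend below 0, and no diamond reaches 1.5-fold.

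Of the lineage factors, HOXB13 had the most even difference. HOXB13 (ENSG00000159184.7, chromosome 17 of GRCh38, 48724763 to 48729178, minus strand) was at 75.1 and 69.2 TPM in SORE6+ cells, against 60.5 and 54.8 TPM in SORE6- cells. The gates did not overlap, with SORE6+ to SORE6- ratios of 1.24 (replicate 1) and 1.26 (replicate 2). The log2 fold change was 0.32 (standard error 0.12, 95% interval 0.00 to 0.64), with an unadjusted limma p of 0.049 and an adjusted p of 1. With the replicate block the limma adjusted p was 0.235 over all genes and 0.0523 over protein-coding genes. The fold change was the same and stays under the 1.5-fold limit. An adjusted p under 0.1 alone held for 0 genes in the block fit over all genes. It held for 1310 genes (10.2%) in that of protein-coding genes.

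GATA2 ran the other way. GATA2 (ENSG00000179348.11, chromosome 3, 128479427 to 128493185, minus strand) was at 47.1 and 44.0 TPM in SORE6+ cells, against 53.7 and 67.3 TPM in SORE6- cells. The gates did not overlap, but the ratio of SORE6+ to SORE6- differed between the pairs, 0.878 in replicate 1 and 0.654 in replicate 2, because the SORE6- library of replicate 2 stood highest. The log2 fold change was -0.39 (standard error 0.15, 95% interval -0.81 to 0.02), with an unadjusted limma p of 0.0595 and an adjusted p of 1. It was -0.23 when that library was left out and -0.55 when its replicate 1 counterpart was. With the block the limma adjusted p was 0.287 over all genes and 0.0874 over protein-coding genes, again below 1.5-fold. GATA2-AS1, an antisense RNA that overlaps GATA2 on the opposite strand, was at 10.4 and 8.69 TPM in SORE6+ cells, against 11.1 and 9.82 TPM in SORE6- cells. The sources do not say whether quantification used strand, so reads from the overlap cannot be told apart.

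FOXA1, the most abundant factor of the set, differed between gates by less than between replicates. FOXA1 (ENSG00000129514.5, chromosome 14, 37589984 to 37596059, minus strand) was at 152 and 125 TPM in SORE6+ cells, against 153 and 142 TPM in SORE6- cells. The gates overlapped, and the SORE6+ library of replicate 2 was the lowest. The log2 fold change was -0.09 (standard error 0.14, 95% interval -0.47 to 0.28, limma adjusted p = 1), and 0.04 without that library, a change of sign. The first part of TTC6, a gene on the opposite strand, overlaps the start of FOXA1 and was at 6.0 to 10.8 TPM.

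Among the relatives of these 3 factors, few came near their levels. Of 9 FOXA and GATA genes, 5 were present, and the next after FOXA1 and GATA2 was GATA3, a luminal factor of several epithelia, at 11.1 and 10.3 TPM in SORE6+ cells, against 12.2 and 12.7 TPM in SORE6- cells. GATA3 thus had the same order of gates as GATA2, without overlap (log2 fold change -0.21, limma adjusted p = 1). FOXA2, which is linked to neuroendocrine prostate cancer, was at 4.20 and 1.74 TPM in SORE6+ cells, against 3.52 and 1.41 TPM in SORE6- cells, so its replicates lay further apart than its gates, which differed by 0.20 and 0.19 on the log2 scale in the replicate 1 and 2 pairs. GATA4 and GATA5 were listed at 0 in all 4 libraries. The 5 tested genes of this list, 2 of them members of the set, had 1 higher and 4 lower means in SORE6+ cells. Over all 17642 genes tested the counts were 6840 and 10802. Of the 5 genes 0 passed, and their median log2 fold change was -0.09.

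The HOX genes showed that the HOXB13 level was not shared by its cluster neighbours. On chromosome 17, HOXB9 was at 1.58 and 1.34 TPM in SORE6+ cells, against 2.92 and 2.13 TPM in SORE6- cells, the opposite order to HOXB13 and without overlap. HOXB7 and HOXB8 were under 1 TPM in every library. Of 18 posterior HOX genes 8 were present, and HOXA9 was the only one near HOXB13, at 73.0 to 89.4 TPM. HOXA10 was at 32.4 and 39.1 TPM in SORE6+ cells, against 42.6 and 53.1 TPM in SORE6- cells, and HOXC13 at 11.7 and 11.8 TPM, against 13.3 and 16.4 TPM. In both, as in HOXB9, the SORE6+ libraries were the lower ones. Of 9 posterior HOX genes tested, HOXB13 alone had SORE6+ libraries above without overlap (10.9% of all genes tested), 3 had them below (20.2%), and 0 passed in limma (median log2 fold change -0.09).

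**Figure D3:**
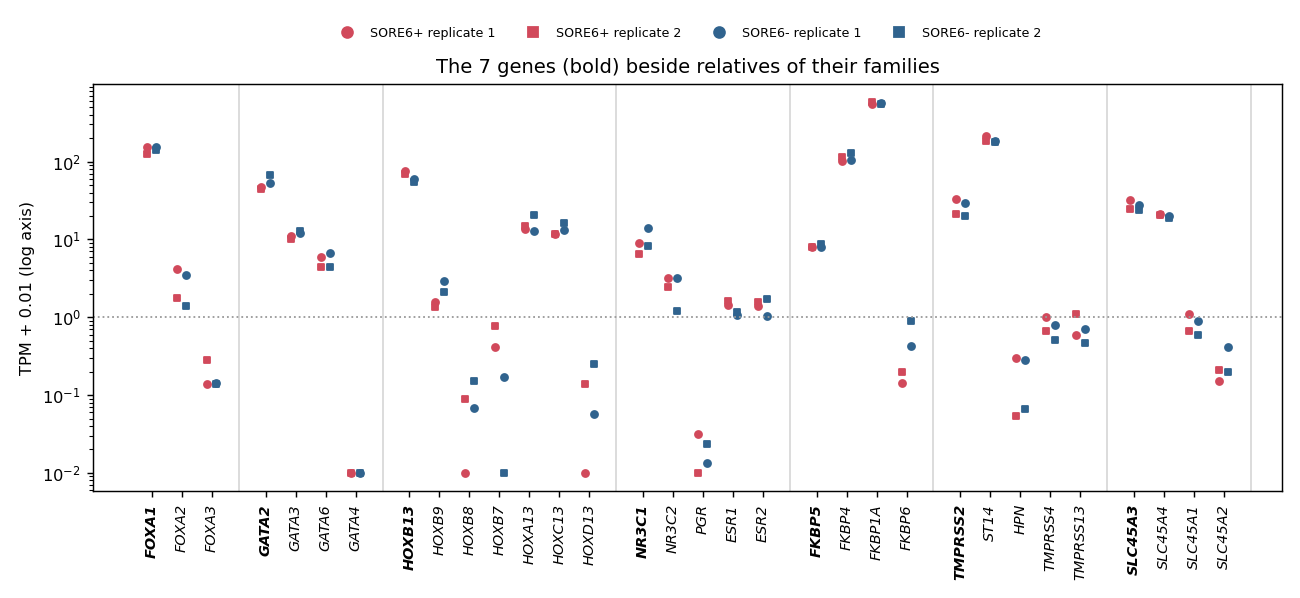
Levels (TPM + 0.01, log axis) of the 7 genes, in bold, beside relatives from their families, SORE6+ in red and left of SORE6- in blue for each gene, circles for replicate 1 and squares for replicate 2, with a dotted line at 1 TPM. NR3C1 lies at 6.52 to 14.0 TPM, and HOXB13 stands far above HOXB7, HOXB8 and HOXB9.

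NR3C1 was the most abundant of the 6 steroid receptor genes. NR3C1 (ENSG00000113580.14, chromosome 5, 143277931 to 143435512, minus strand) was at 9.08 and 6.52 TPM in SORE6+ cells, against 14.0 and 8.23 TPM in SORE6- cells. It was lower in SORE6+ cells in both pairs, with ratios of 0.647 and 0.792, but the gates overlapped because replicate 1 was higher than replicate 2 by 0.42 in SORE6+ cells and by 0.70 in SORE6- cells on the log2 scale. The log2 fold change was -0.44 (standard error 0.32, 95% interval -1.30 to 0.43, limma adjusted p = 1), and leaving out a SORE6- library brought it to -0.08 (replicate 1) or -0.79 (replicate 2). Leaving out a SORE6+ library gave -0.65 (replicate 1) or -0.22 (replicate 2). With the block the limma adjusted p was 0.265 over all genes and 0.088 over protein-coding genes, below 1.5-fold. NR3C2, the mineralocorticoid receptor, was at 3.22 and 2.44 TPM in SORE6+ cells, against 3.23 and 1.19 TPM in SORE6- cells. ESR1 and ESR2, the estrogen receptors, were at 1.02 to 1.71 TPM.

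FKBP5, an HSP90 co-chaperone that lowers the hormone affinity of the glucocorticoid receptor, was the steadiest of the 7. FKBP5 (ENSG00000096060.14, chromosome 6, 35573585 to 35728583, minus strand) was at 7.90 and 7.97 TPM in SORE6+ cells, against 8.01 and 8.84 TPM in SORE6- cells. Both SORE6+ libraries were below both SORE6- libraries, by a margin that is small next to the error (log2 fold change -0.08, standard error 0.15, 95% interval -0.48 to 0.33, limma adjusted p = 1). FKBP4, its counterpart that favours receptor activation, was over 10 times as abundant, at 102 and 114 TPM in SORE6+ cells, against 106 and 127 TPM in SORE6- cells. Of 16 FKBP genes tested, 8 had higher and 8 lower means in SORE6+ cells, and 0 passed. Of 13 chaperones of steroid receptors, all present, 9 had lower means in SORE6+ cells and 0 passed. Over all 17642 genes tested, 6840 had higher and 10802 lower means in SORE6+ cells. HSP90AA1, the inducible HSP90, was at 683 and 696 TPM in SORE6+ cells, against 822 and 809 TPM in SORE6- cells.

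TMPRSS2 and SLC45A3 were alike in level and in pattern. TMPRSS2 (ENSG00000184012.11, chromosome 21, 41464551 to 41531116, minus strand), a membrane-anchored serine protease, was at 33.5 and 21.0 TPM in SORE6+ cells, against 29.2 and 20.1 TPM in SORE6- cells. SLC45A3 (ENSG00000158715.5, chromosome 1, 205657851 to 205680459, minus strand), the membrane protein prostein, was at 32.5 and 24.8 TPM in SORE6+ cells, against 27.7 and 24.0 TPM in SORE6- cells. In both genes replicate 1 was higher than replicate 2 within each gate, and the gates overlapped. The log2 fold change was 0.13 for TMPRSS2 (standard error 0.31, 95% interval -0.71 to 0.97) and 0.13 for SLC45A3 (standard error 0.18, 95% interval -0.37 to 0.64), each with a limma adjusted p of 1. The sign of both depended on single libraries: leaving out SORE6+ replicate 1 gave -0.20 for TMPRSS2 and -0.05 for SLC45A3, and leaving out SORE6- replicate 2 gave -0.13 for TMPRSS2. The replicate difference of TMPRSS2, 0.65 in SORE6+ cells and 0.52 in SORE6- cells on the log2 scale, was larger than its difference between gates.

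Both genes are known as 5' partners of ETS fusions in prostate cancer. ERG, the usual partner of TMPRSS2, was listed at 0 in all 4 libraries. ETV4 was at 132 and 99.8 TPM in SORE6+ cells, against 117 and 96.9 TPM in SORE6- cells, and ETV1 at 105 and 69.8 TPM, against 107 and 67.8 TPM. ELK4, the neighbour that SLC45A3 reads into in some tumours, was at 14.2 and 10.1 TPM in SORE6+ cells, against 15.8 and 13.8 TPM in SORE6- cells. All 5 genes of this list that were tested were higher in replicate 1 in both gates, as TMPRSS2 and SLC45A3 were. So were 48.3% of all genes tested. Of the 5 genes, 0 passed. Gene-level TPM does not show fusion transcripts. Of 12 membrane serine proteases and their inhibitors, 4 were present: TMPRSS2, the matriptase gene ST14 (212 and 186 TPM in SORE6+ cells, against 186 and 178 TPM in SORE6- cells) and the inhibitors SPINT1 and SPINT2. Of the SLC45 family, SLC45A4 was close to SLC45A3, at 18.6 to 21.1 TPM, and SLC45A1 and SLC45A2 were low.

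The luminal program was kept in part. The luminal list had 27 genes with a row, FOXA1, HOXB13, SLC45A3 and TMPRSS2 among them. Of the 27, 19 were present, 7 were low, meaning between 0.1 and 1 TPM in at least 1 library, and 1 was near 0. Present were the luminal keratins KRT8 (1006 and 1054 TPM in SORE6+ cells, against 892 and 1162 TPM in SORE6- cells), KRT18 and KRT19, the adhesion genes EPCAM and CDH1, the secretory-pathway gene AGR2, and FOLH1, the gene of prostate-specific membrane antigen. The secreted and androgen-dependent end products named here were low or missing, except KLK4, which was present at 2.64 to 4.26 TPM. KLK3, the gene of prostate-specific antigen, was listed at 0 in all 4 libraries, and MSMB was at 0.212 TPM or less. KLK2 was at 0.291 to 0.936 TPM and the prostatic acid phosphatase gene ACPP at 0.502 to 1.82 TPM. KLK2 and KLK4 come from the list of androgen-induced genes. FOXA1, HOXB13, SLC45A3 and TMPRSS2, which belong to the luminal list, lay below the keratins and above these end products in every library.

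**Figure D4:**
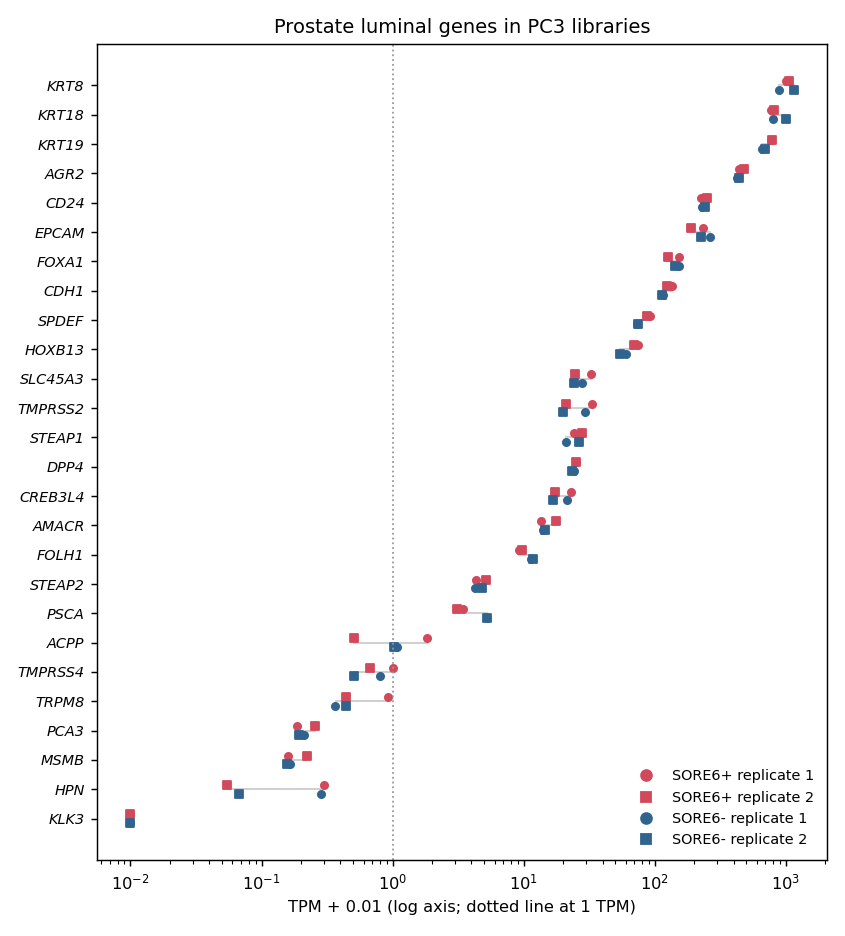
Levels (TPM + 0.01, log axis) of prostate luminal genes of the list ordered by mean, SORE6+ in red above SORE6- in blue, circles for replicate 1 and squares for replicate 2; the dotted line is at 1 TPM. The points run from KRT8, at 892 to 1162 TPM, to KLK3, listed at 0, and FOXA1, HOXB13, SLC45A3 and TMPRSS2 lie between 20.1 and 153 TPM.

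Between the gates, the mean of SORE6+ cells was the higher one in 16 of the 21 luminal genes tested and the lower one in 5, against 6840 and 10802 of all 17642 genes tested, with a median log2 fold change of 0.07 against -0.05 over all genes tested, and 0 passed in limma. HOXB13 was 1 of 5 genes whose SORE6+ libraries lay above without overlap, with SPDEF, KRT19, CDH1 and DPP4, an order that 10.9% of all genes tested had. SPDEF, an ETS factor of luminal and secretory cells, was at 92.9 and 87.1 TPM in SORE6+ cells, against 73.7 and 75.2 TPM in SORE6- cells. FOLH1 (9.20 and 9.76 TPM in SORE6+ cells, against 11.4 and 11.7 TPM in SORE6- cells) and PSCA (3.44 and 3.10 TPM, against 5.20 and 5.26 TPM) had the opposite order without overlap. A fold change of a list is on the log2(TPM + 1) scale, which understates differences of low genes.

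Of 32 androgen-induced genes, 24 were present. In SORE6+ cells the mean was higher for 8 of the 25 tested and lower for 17, against 6840 and 10802 of all 17642 genes tested. Of the 25, 0 passed in limma without a block. The median log2 fold change of the list was -0.08, against -0.05 over all genes tested. The sign of the list median depended on single libraries. It was -0.20 without SORE6+ replicate 1 and 0.06 without SORE6+ replicate 2. Without SORE6- replicate 1 it was 0.06, and without SORE6- replicate 2 it was -0.19. In the block fit of protein-coding genes 1 of the 25 passed as higher, as 0.554% of genes did. It was NDRG1, a gene that low oxygen and stress also induce. NDRG1 was at 801 and 591 TPM in SORE6+ cells, against 463 and 349 TPM in SORE6- cells. Its log2 fold change was 0.78. The limma adjusted p was 0.0117 in that fit and 0.234 with the block over all genes. FKBP5, TMPRSS2 and SLC45A3, with log2 fold changes of -0.08, 0.13 and 0.13, did not share the difference of NDRG1. PMEPA1, which TGF-beta also induces, was at 57.2 and 55.0 TPM in SORE6+ cells, against 67.0 and 94.1 TPM in SORE6- cells.

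Of 27 glucocorticoid-induced genes, 23 were present, so transcripts of receptor, co-chaperone and targets were all measured. In SORE6+ cells the mean was higher for 11 of the 24 tested and lower for 13 (median log2 fold change -0.02), and 0 passed without a block, while the block fit of protein-coding genes called 1 higher. The replicates of this list lay further apart than the gates: the median of replicate 1 minus replicate 2 was 0.56 in SORE6+ cells and 0.57 in SORE6- cells on the log2 scale, against 0.08 and 0.09 over all genes tested. In both gates 18 of the 24 were higher in replicate 1 and 4 in replicate 2, against 48.3% and 26.4% of all genes tested. DUSP1 was at 208 TPM in replicate 1 and 61.9 TPM in replicate 2 of SORE6+ cells, with 189 and 55.3 TPM in SORE6- cells. PER1, a clock gene that glucocorticoids induce, was at 21.9 and 7.71 TPM in SORE6+ cells, against 31.5 and 8.62 TPM in SORE6- cells. NR3C1 itself was higher in replicate 1. FKBP5 was among the 4 higher in replicate 2 (-0.01 and -0.13, replicate 1 minus replicate 2 on the log2 scale, in SORE6+ and SORE6- cells). So was TSC22D3, another direct target, at 8.71 and 10.8 TPM in SORE6+ cells and 11.2 and 13.2 TPM in SORE6- cells. The cause of the replicate difference was not tested.

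Over the set, the difference between gates was larger than that between replicates for HOXB13 (0.32 against 0.13), GATA2 (0.39 against 0.11) and FKBP5 (0.08 against 0.07). It was smaller for NR3C1 (0.44 against 0.56), FOXA1 (0.09 against 0.19), TMPRSS2 (0.13 against 0.58) and SLC45A3 (0.13 against 0.29). These are absolute values of signed log2 means, over both pairs for gates and over both gates for replicates. For GATA2 the replicate differences had opposite signs, 0.10 in SORE6+ cells and -0.32 in SORE6- cells, so their mean understates them. The part of the replicate difference in these values was not tested.

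**Figure D5:**
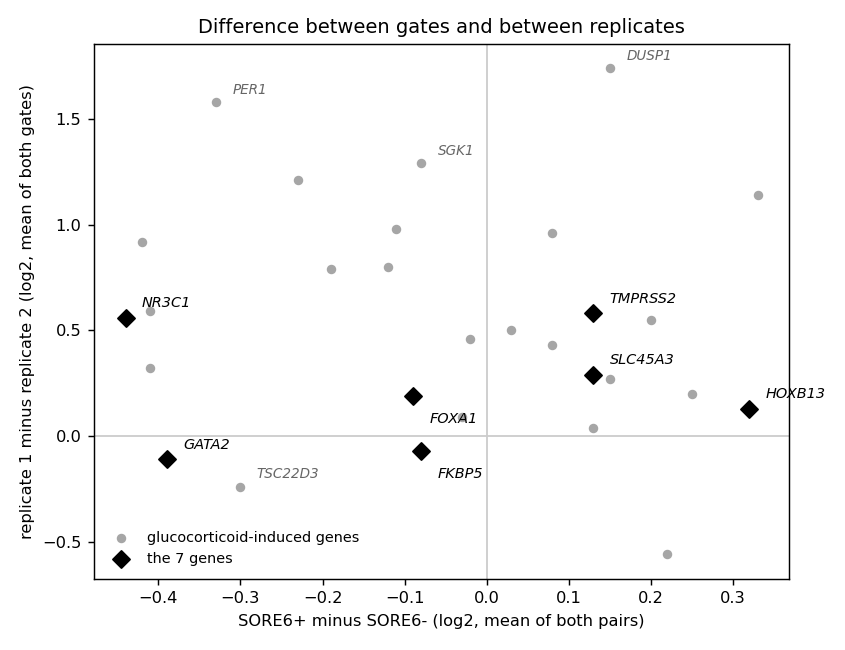
Difference between gates, SORE6+ minus SORE6- (horizontal axis), against the difference between replicates, 1 minus 2 (vertical axis), both on the log2(TPM + 1) scale, for the 7 genes (diamonds) and glucocorticoid-induced genes of the list that were tested (grey). Both differences are signed means, over both pairs for gates and over both gates for replicates. HOXB13 and GATA2 lie far from 0 along the horizontal axis and near 0 on the vertical one. For GATA2 the replicate differences of 0.10 (SORE6+) and -0.32 (SORE6-) partly cancel there. TMPRSS2 and NR3C1 lie at 0.58 and 0.56 on the vertical axis.

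Genes whose profile over the 4 libraries was closest to each member were sought among 10801 tested genes with a mean of at least 5 TPM, by the root mean square difference of centred log2(TPM + 1). HOXB13 was followed by LDHA, the lactate dehydrogenase gene, at 2612 and 2452 TPM in SORE6+ cells, against 2157 and 1934 TPM in SORE6- cells (0.012), and by SLC6A9, a glycine transporter (0.017). GATA2 was closest to ENO3 (0.025) and TMEM198B (0.030), and NR3C1 to MAN2C1 (0.034) and ANKRD12 (0.042). TMPRSS2 was closest to FOXD1 (0.0099) and FBLN1 (0.023), SLC45A3 to OBSL1 (0.0062) and ABI2 (0.0068), FOXA1 to PAPD7 (0.0050) and AHNAK (0.0056), and FKBP5 to FBXO27 (0.0049) and SEC24D (0.0092). With only 4 points such profiles are easily matched: 68 genes lay within 0.1 of NR3C1, 92 of GATA2, 252 of TMPRSS2, 449 of HOXB13, 1024 of SLC45A3, 2285 of FOXA1 and 2550 of FKBP5.

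Other cell types were looked for by their markers. ENO2 was the only one of 10 neuroendocrine markers present, 8 were near 0, and INSM1 and GRP were among those listed at 0 in all libraries. The summed level of this list was mostly ENO2, at 52.4 to 60.8 TPM in SORE6+ cells and 33.4 to 39.2 TPM in SORE6- cells. Of 9 immune markers only CD68 was present (summed level, mostly CD68, 49.8 to 55.1 TPM in SORE6+ cells, against 29.2 to 33.7 TPM in SORE6- cells), with PTPRC at 0.0971 to 0.746 TPM, and CD3E and MS4A1 under 0.1 TPM. ENO2 and CD68, the only genes of these 2 lists that were tested, passed as higher in the block fit of protein-coding genes, as 0.554% of genes did. Basal markers KRT5 and TP63 were under 1 TPM, while 4 of 9 basal markers were present, with KRT15 at 61.4 to 127 TPM (summed level 130 to 186 TPM in SORE6+ cells, against 110 to 201 TPM in SORE6- cells). Of 9 fibroblast and smooth muscle markers 3 were present (summed level of the 9, 18.5 to 35.1 TPM in SORE6+ cells, against 17.3 to 44.9 TPM in SORE6- cells). Of 6 endothelial markers PECAM1 alone was present (summed level of the 6, 13.5 to 15.9 TPM in SORE6+ cells, against 16.1 to 18.0 TPM in SORE6- cells). Of 8 club and urothelial markers 2 were present. The summed level of the 8, almost all LCN2, was 365 to 392 TPM in SORE6+ cells, against 269 to 311 TPM in SORE6- cells. The part of these genes in the results on the 7 was not tested.

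Each library's table summed to 1000000 TPM. Values above 0 were listed for 30709 and 29778 genes in SORE6+ cells and for 31501 and 30535 genes in SORE6- cells. Of the 31-base sequences in the transcripts of each member, 3.08% (FKBP5) or less also occurred in another gene.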

How the data were processed

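RNA of sorted PC3 cells was sequenced on the BGISEQ-500 with paired 100 bp reads at a stated 30 M reads a sample. The authors used FastQC and MultiQC for quality, Trim Galore for adapters, salmon for transcripts and tximport to sum them per gene, on GRCh38 by the submitters' processing notes. The annotation release, the use of strand and all tool versions: not given in the sources used here. The deposited values are TPM per gene, as the authors computed them, with a separate table for each library. TPM keeps no read counts, so depth and counting error are unknown, and precision comes only from the spread between 2 libraries a gate.

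Rows were taken by symbol, and positions and gene types from GENCODE release 29, which held 57844 of the 57963 IDs. limma 3.58.1 in R 4.3.3 was fitted to log2(TPM + 1) with the gate as the only term, a trended prior and two-sided p-values, which were Benjamini-Hochberg adjusted across every gene tested, and was tested on simulated data with known changes. limma took the place of a count test because the unit is TPM. The thresholds of an adjusted p under 0.1 and 1.5-fold are the study's. Pair differences are SORE6+ minus SORE6- of the same replicate number. Replicates share a number in both gates, and the methods speak of separate pairs of sorted cells, but the number is not stated to mark the pair, so the replicate block is an alternative. Other alternatives were a pseudocount of 0.1, no filter, TPM rescaled by relative log expression or upper-quartile factors, another threshold, and each library left out. Named genes are the 7, in each list up to 5 of highest mean TPM, those that passed in any fit and up to 4 of largest change with gates apart, and the 2 closest profiles per member. Some others were chosen after their values were seen, as receptors, relatives or defining markers: PGR, SOX2, POU5F1, low HOX and GATA genes, ERG, KLK2, KLK3, MSMB, ACPP, TSC22D3 and the marker genes. The 7 genes and all lists were chosen with earlier results of these data known. No set test was run. Some genes of the lists are not reported here by name and were left out of the plots. Other tools were data.table in version 1.17.8, pandas 2.3.3, matplotlib 3.10.9 and numpy 2.4.6, under Python 3.11.15.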

Additional observations from a re-analysis of the deposited data

How the results depend on the processing

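No gene passed under any alternative that keeps all genes. The replicate block over 12826 protein-coding genes gave 71 higher (0.554%) and 93 lower (0.725%). Among the 71 were 1 of 25 androgen-induced genes, 1 of 24 glucocorticoid-induced genes, 1 neuroendocrine marker and 1 immune marker. The cause of the different counts was not tested beyond the change of gene set and model. Same-numbered libraries deviated together, with a correlation across genes of 0.344, which is a hint from the data and not the design. Principal components 1 and 2 held 49.8% and 27.8% of the variance. Which libraries they separate is not given here, so these shares do not bear on the pairing. The replicate block changed no call of the 7 genes. With 1 library left out, fits without a block gave log2 fold changes of -0.79 to -0.08 for NR3C1, -0.23 to 0.04 for FOXA1, 0.25 to 0.39 for HOXB13, -0.55 to -0.23 for GATA2, -0.14 to -0.01 for FKBP5, -0.20 to 0.45 for TMPRSS2 and -0.05 to 0.32 for SLC45A3. FOXA1 (0.0447), TMPRSS2 (-0.195 and -0.132) and SLC45A3 (-0.0541) changed sign there. Where a gate keeps 1 library, that library is assumed to vary like the others. The median log2 fold change of the FOXA and GATA list was -0.0124 with relative log expression factors and -0.0184 with upper-quartile factors. Leaving out 1 library gave -0.255 to 0.0447. In the same way the medians ran from -0.318 to 0.229 (ETS and other fusion partners), -0.198 to 0.0608 (androgen-induced genes), -0.276 to 0.326 (glucocorticoid-induced genes), -0.17 to -0.0321 (chaperones), -0.209 to 0.0848 (coregulators) and -0.0274 to 0.213 (membrane proteases and inhibitors), and the cause was not tested. Of 70 values for the 7 genes, 66 kept their direction and their side of the threshold. No gene at all passed outside the block fit of protein-coding genes, so the side of the threshold could not change in the other settings. The block fits leave the fold change itself unchanged, so direction could not change in them. Depth is unknown, so genes under 1 TPM are given as levels only.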

Other observations

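Steroid-handling enzymes and receptor coregulators were measured beside the 7 genes. Of 19 enzymes 8 were present. AKR1C3, which makes testosterone from androstenedione, was at 30.2 and 26.4 TPM in SORE6+ cells, against 22.5 and 18.8 TPM in SORE6- cells, without overlap. Its log2 fold change was 0.44, below 1.5-fold, with a limma adjusted p of 1 without the block. With the replicate block the limma adjusted p was 0.235 over all genes and 0.0479 over protein-coding genes. HSD11B2, which inactivates cortisol, was at 3.57 to 5.01 TPM, while HSD11B1, which regenerates it, was at 0.0648 TPM or less, and CYP17A1 was at 0.625 TPM or less. All 19 coregulators and partner factors were present, 6 with a higher and 13 with a lower mean in SORE6+ cells, and 0 passed in limma. Over all 17642 genes tested, 6840 had a higher and 10802 a lower mean. GRHL2, an epithelial factor that works beside FOXA1, was at 26.2 and 29.2 TPM in SORE6+ cells, against 32.0 and 35.9 TPM in SORE6- cells.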
